A study of Mus musculus with 4 samples.

Results

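The carnitine shuttle was represented by 8 genes, chosen by name from the expression table of mouse liver: Cpt1a, Cpt1b, Cpt1c, Cpt2, Slc25a20, Crat, Crot and Slc22a5. All 8 were among the 15500 genes listed, and all 8 had a mean of at least 1 FPKM (fragments per kilobase of transcript, scaled by the number of mapped fragments) over the libraries. The set was put together with earlier results of these data known, so its values are given as a description. The study asked how dietary conjugated linoleic acid (CLA) affects the liver and whether the nuclear receptor PPARα takes part. The mice were wild-type male Kunming animals, bought at 5 weeks of age and fed chow for 1 week before 28 days of treatment. The Vehicle library came from animals on chow with 1.5% (w/w) linoleic acid, and the CLA library from animals on chow with 1.5% CLA, an equal mixture of the c9t11 and t10c12 isomers in the study's methods. The GW6471 library came from animals on the linoleic acid chow with daily intraperitoneal GW6471, a PPARα antagonist, at 20 mg/kg, and the CLA+GW6471 library from animals on the CLA chow with the same injections. No group was left on plain chow, so Vehicle also carried added linoleic acid.

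The treatment groups held 6 mice each per the labels, but the table has 1 library per condition, and neither the number of animals behind a library nor any pooling is given in the sources used here. Livers of the control and CLA mice were taken at zeitgeber time 8 per the study's methods. Without replicates there is no error between animals, no difference was tested, and each value describes these 4 libraries as labelled. In bulk RNA, fewer cells of a type and less RNA per cell cannot be told apart. The depth, read from the steps between low values, was estimated at 18710000 to 19250000 reads per library. Counting intervals (95%) come from those estimates and cover counting error only. Of 15 hepatocyte markers, 12 were listed and 7 of these had a mean under 1 FPKM. Albumin (Alb) stood at 620 to 1322 FPKM and Hnf4a at 47.2 to 54.5 FPKM, whereas Ttr, Fga, Cyp2e1 and Cps1, abundant transcripts of adult hepatocytes, were at most 0.11 FPKM in every library. The tissue label was thus borne out by only part of its defining markers. Of 8 epithelial markers, 7 were listed, with a summed level of 1585 to 1861 FPKM, mostly Krt18 (1171 to 1359) and Krt8 (403 to 491). Hepatocytes are themselves epithelial, so this sum does not mark a separate cell type. Epcam stood at 7.09 to 8.95, Krt5 at 2.79 to 4.29, Krt14 at most 0.05 and Trp63 at most 0.04. Of 7 stellate cell or fibroblast markers, 5 were listed, and nearly all of their summed 1149 to 1507 FPKM was Dcn, with Col3a1 and Pdgfrb at most 0.05. Of 6 immune markers, 4 were listed, with a summed level of 23.8 FPKM in Vehicle, 36.1 with CLA, 25.3 with GW6471 and 24.7 with both, nearly all of it Cd68, a macrophage marker, while Ptprc was at most 0.01. The part of cell content in the differences below was not tested.

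Long-chain fatty acids cannot cross the inner mitochondrial membrane as acyl-CoA. Carnitine palmitoyltransferase 1 on the outer membrane transfers the acyl group to carnitine, the carrier encoded by Slc25a20 exchanges acylcarnitine for free carnitine, and carnitine palmitoyltransferase 2 restores acyl-CoA in the matrix, where beta-oxidation starts. The first transfer is inhibited by malonyl-CoA and is regarded as the main control point of hepatic fatty acid oxidation. PPARα is a ligand-activated receptor that induces genes of fatty acid oxidation in the liver during fasting, and Cpt1a is among its known targets.

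The sequence just upstream of 3 genes is shown. Cpt1a and Slc25a20 were taken because they differed most between the libraries. Cpt1c, a paralog of Cpt1a, was taken because its difference was smaller, at most 1.33-fold. The sequences come from the RefSeq promoter table of GRCm38.p6, and each window had 1 exact match in mm9, the assembly of the deposited data, to which the positions refer. Capitals mark AGGTCA or its reverse complement, the half-site bound by many nuclear receptors.
Cpt1a, chr19:3323051-3323300, plus strand: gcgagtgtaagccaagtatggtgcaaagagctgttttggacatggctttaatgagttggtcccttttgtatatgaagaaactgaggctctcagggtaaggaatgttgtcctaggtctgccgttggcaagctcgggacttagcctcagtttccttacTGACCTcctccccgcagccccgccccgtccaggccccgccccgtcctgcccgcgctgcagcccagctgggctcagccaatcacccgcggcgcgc
Slc25a20, chr9:108564217-108564428, plus strand: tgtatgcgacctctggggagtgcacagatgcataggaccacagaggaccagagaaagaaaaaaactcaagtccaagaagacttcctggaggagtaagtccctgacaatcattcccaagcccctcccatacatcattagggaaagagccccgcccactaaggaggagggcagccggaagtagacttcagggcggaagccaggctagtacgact
Cpt1c, chr7:52230222-52230471, minus strand: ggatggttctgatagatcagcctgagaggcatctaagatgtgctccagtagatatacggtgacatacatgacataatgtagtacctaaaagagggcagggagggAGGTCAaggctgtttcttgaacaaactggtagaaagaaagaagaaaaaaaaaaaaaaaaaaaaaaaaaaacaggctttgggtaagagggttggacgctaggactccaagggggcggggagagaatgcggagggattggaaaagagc
Each run is intergenic in the GENCODE vM1 annotation. The Cpt1a run ends at the annotated 5′ end of the gene, the Slc25a20 run was cut where the annotated first exon begins, and the Cpt1c run ends 37 bp upstream of the annotated gene.

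The half-site stood on the minus strand 94 to 89 bases before the start of Cpt1a, and on the gene's own strand 146 to 141 bases before the start of Cpt1c. Of the 8 genes, 6 had a promoter window of 250 bases before and 50 after the start, and AGGTCA occurred on either strand in 2 of these 6. Over all 32851 windows it occurred in 16.3%. The full DR1 element, AGGTCA repeated in the same direction with 1 free base between the copies, is the arrangement that PPARα binds together with RXR. On either strand it was in 0 of the 6 windows, against 0.0396% of all windows, and the palindrome CACGTG was in 0, against 7.15%. Within 5000 bp on either side of the gene's 5′ end in mm9, the full DR1 was found at 0 of the 8 genes, against 2.12% of 22380 protein-coding genes. A looser DR1 that leaves the T of each copy free, and so includes the full one, was found near 3 of the 8 genes, against 16.4% of all. The same 13 bases, AGGTCAGAGGACA, lay upstream of Cpt2 at chr4:107597839-107597851 and upstream of Crat at chr2:30273338-30273350, the latter inside the neighbouring gene Ppp2r4. Near Cpt1b the match was AGGGCAGAGGACA at chr15:89251596-89251608, in an intron and within the overlapping gene Chkb. These are matches of letters and say nothing about binding.

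Carnitine uptake into the cell depends on Slc22a5, which encodes the high-affinity sodium-dependent carnitine transporter. This gene lies on the minus strand of chromosome 11, from 53678044 to 53705162 in mm9. Slc22a5 had 4.61 FPKM in Vehicle, 4.13 with CLA, 4.81 with GW6471 and 4.70 with both agents (CLA+GW6471). The highest library exceeded the lowest by 1.16-fold, and all 4 comparisons lay within the counting interval. The value is uncertain, since 38.5% of the 31-base stretches of its longest coding transcript also occur in transcripts of other genes, 1108 of them in Slc22a21, a paralog from the same transporter family. Slc22a21 itself was listed at 2.55 to 3.24 FPKM.

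The Cpt1 family has 3 paralogs, and the liver form Cpt1a differed most. Cpt1a spans 62432 bp on the plus strand of chromosome 19, from 3323301 to 3385732, with 1 annotated transcript. Its level was 11.34 FPKM in Vehicle, 15.98 with CLA, 46.04 with GW6471 and 43.13 with both. Both libraries with GW6471 stood far above both libraries without it, and the counting intervals of the former, 44.6 to 47.5 and 41.7 to 44.6 FPKM, began above the 16.9 FPKM at which that of CLA ended. Among all listed genes, Cpt1a ranked 5877 from the top in Vehicle and 4793 in CLA, and 1881 in GW6471 and 2030 in CLA+GW6471.

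On the log2 scale of FPKM + 0.1, used for all ratios below, the difference of Cpt1a between GW6471 and Vehicle was 2.01 (counting interval 1.91 to 2.12), which is 4.03-fold. Only 4 of the 10355 genes with a mean of at least 1 FPKM had a higher ratio in this comparison. In the CLA-fed mice, CLA+GW6471 against CLA, the log2 ratio of Cpt1a was 1.43 (1.33 to 1.52), at place 30 of the same genes. The ratio of CLA to Vehicle was smaller, at 0.49 (0.37 to 0.61), or 1.41-fold. CLA+GW6471 lay slightly below GW6471, with a log2 ratio of -0.09 (-0.16 to -0.03). The known PPARα target was thus higher in both libraries labelled with the PPARα antagonist, and the labels were not tested against any other measure. The receptor's own transcript, Ppara, was at most 0.15 FPKM in every library.

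**Figure D1:**
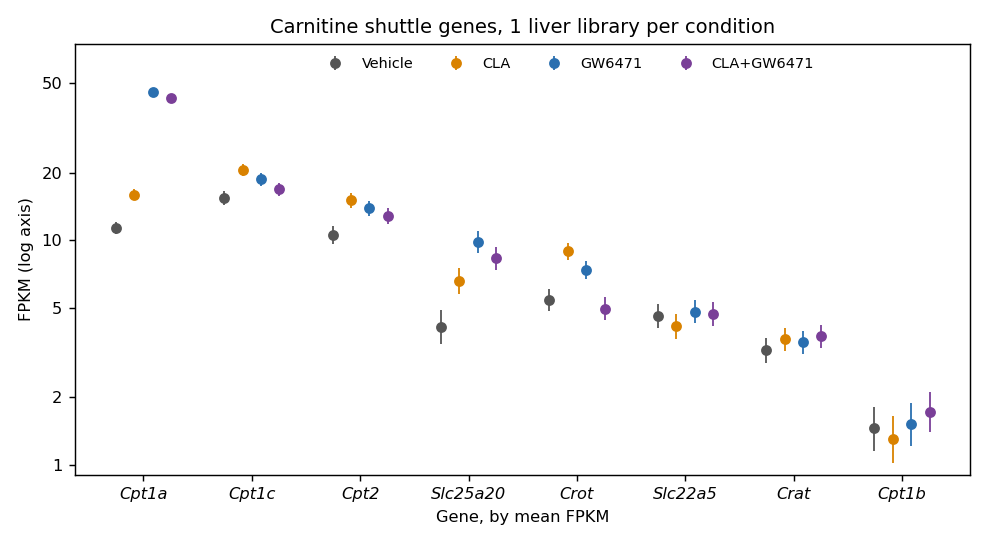
Level of each carnitine shuttle gene in FPKM (log axis) in the 4 libraries, with genes ordered by mean level. Points are single libraries and bars are 95% counting intervals from the estimated reads, so they do not show variation between animals. Cpt1a stood at 46.04 and 43.13 FPKM in the libraries with GW6471 and at 11.34 and 15.98 FPKM in those without, while Slc22a5, Crat and Cpt1b were nearly level.

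Cpt1b encodes the form typical of muscle, heart and brown fat. It was the lowest of the 8 genes in every library, with 1.45 FPKM in Vehicle, 1.30 with CLA, 1.52 with GW6471 and 1.72 with both. Those levels correspond to 70 to 96 estimated reads, and every ratio lay within the counting interval. Of its exonic bases on chromosome 15 (89246836 to 89256294, minus strand), 81.4% are also annotated as exons of Chkb, the choline kinase gene next to it, which stood at 21.2 to 25.1 FPKM. Reads of these 2 genes may not be separable, so the level of Cpt1b is uncertain. Muscle markers were near 0, with 5 of 9 listed and a summed level of 0.11 to 0.61 FPKM. Of the 6 adipocyte markers, 3 were listed, and the summed level of 5.08 to 7.88 FPKM came mostly from Fabp4, with Adipoq at 0.08 FPKM or less.

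Cpt1c is the form described in neurons, where it resides mainly in the endoplasmic reticulum and has little transferase activity. It lies on the minus strand of chromosome 7, from 52214743 to 52230184. Its level was 15.41 FPKM in Vehicle, 20.50 with CLA, 18.68 with GW6471 and 16.87 with both. The highest library exceeded the lowest by 1.33-fold, which was under the 1.5-fold used here to count a gene as higher or lower. In the libraries without GW6471, Cpt1c was the most abundant of the 8 genes per length, ahead of Cpt1a. Defining neuronal transcripts were near 0: all 7 listed markers had a mean under 1 FPKM, with a summed level of 0.38 to 0.63 FPKM and Snap25 at 0.05 or less. The longest coding transcripts of Cpt1a and Cpt1c shared no stretch of 31 bases with each other or with another annotated coding transcript.

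The makeup of the Cpt1 family therefore differed between the libraries. These are shares of the gene family and not of the outer-membrane transfer, since Cpt1c has little transferase activity. Summed FPKM of the 3 genes was 28.2 in Vehicle, 37.8 with CLA, 66.2 with GW6471 and 61.7 with both. Cpt1a held 40.2% of that sum in Vehicle, 42.3% with CLA, 69.5% with GW6471 and 69.9% with both. The share of Cpt1c was 54.6% and 54.3% without GW6471, and 28.2% and 27.3% with it. Between the diets the shares differed little, both without and with GW6471.

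**Figure D2:**
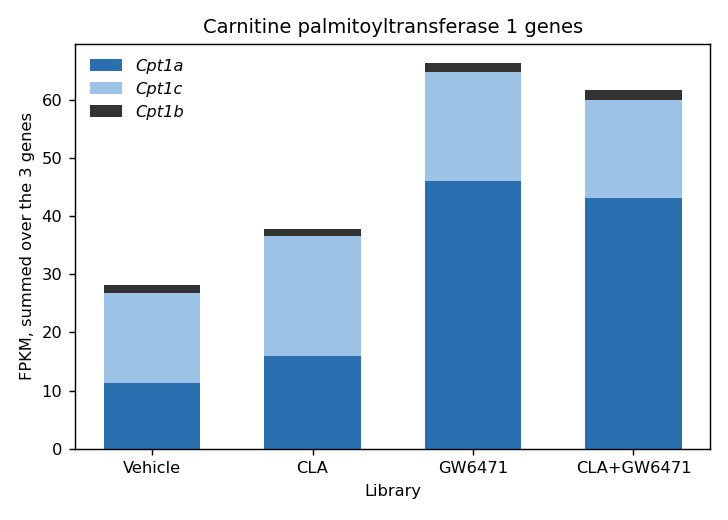
Stacked FPKM of Cpt1a, Cpt1c and Cpt1b in each of the 4 libraries, on a linear axis from 0. The sum goes from 28.2 FPKM in Vehicle to 66.2 in GW6471, and most of the added height is Cpt1a.

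Slc25a20, the carnitine-acylcarnitine carrier of the inner membrane, had its libraries in the same order as Cpt1a. It lies on the plus strand of chromosome 9, from 108564429 to 108586972. It had 4.12 FPKM in Vehicle, 6.61 with CLA, 9.83 with GW6471 and 8.34 with both. Every treated library was above Vehicle. The log2 ratio of GW6471 to Vehicle was 1.23 (0.95 to 1.52), or 2.35-fold, at place 28 of the 10355 genes. CLA against Vehicle gave 0.67 (0.36 to 0.98), CLA+GW6471 against CLA 0.33 (0.08 to 0.59), and CLA+GW6471 against GW6471 -0.23 (-0.46 to -0.01).

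Cpt2, the matrix enzyme that completes the shuttle, varied less. On the minus strand of chromosome 4, from 107576586 to 107596215, it had 10.52 FPKM in Vehicle, 15.09 with CLA, 13.86 with GW6471 and 12.87 with both. Vehicle was lowest and CLA highest, at a log2 ratio of 0.52 (0.35 to 0.69), or 1.43-fold. GW6471 exceeded Vehicle by 0.39 (0.22 to 0.57). The enzymes before and after the carrier thus stood in different proportion: Cpt1a to Cpt2 was 1.08 in Vehicle and 1.06 in CLA, and 3.32 in GW6471 and 3.35 in CLA+GW6471. Cpt2 to Slc25a20 went from 2.55 in Vehicle and 2.28 in CLA to 1.41 in GW6471 and 1.54 in CLA+GW6471.

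The remaining genes encode the short- and medium-chain transferases. Crat, carnitine acetyltransferase, buffers acetyl-CoA by forming acetylcarnitine, and Crot, carnitine octanoyltransferase, prepares medium-chain products of peroxisomal oxidation for export. Crat, on the minus strand of chromosome 2 from 30255991 to 30271333, had 3.23 FPKM in Vehicle, 3.63 with CLA, 3.51 with GW6471 and 3.73 with both. Its 4 ratios ranged from 0.04 to 0.16 and lay within their counting intervals, and 7.63% of its exonic bases overlap Gm16323 on the opposite strand.

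Crot was the 1 gene of the 8 with its lowest level in CLA+GW6471. It lies on the minus strand of chromosome 5, from 8966033 to 8997324. Its level was 5.44 FPKM in Vehicle, 8.92 with CLA, 7.38 with GW6471 and 4.95 with both. Each single treatment was above Vehicle, and the combination was slightly below it. The log2 ratio was 0.70 (0.50 to 0.91) for CLA against Vehicle and 0.43 (0.22 to 0.65) for GW6471 against Vehicle. CLA+GW6471 against CLA gave -0.84 (-1.05 to -0.63), and CLA+GW6471 against GW6471 gave -0.57 (-0.78 to -0.35). The summed hepatocyte markers, mostly albumin, had the same order of libraries, with 801 FPKM in Vehicle, 1540 with CLA, 1229 with GW6471 and 733 with both. Fgb and Apob also had that order, but Hnf4a was highest in Vehicle (54.5 FPKM) and at 47.3 with CLA, Tat was lowest with CLA and Ass1 was lowest in Vehicle. The part of hepatocyte content in the result was not tested.

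Ordered by level, Vehicle and CLA began with Cpt1c, Cpt1a and Cpt2, and both libraries with GW6471 began with Cpt1a, Cpt1c and Cpt2. Cpt1a and Cpt2 overlapped in their counting intervals in Vehicle and in CLA, and were apart with GW6471. In Vehicle, Crot overlapped Slc22a5, Slc22a5 overlapped Slc25a20 and Slc25a20 overlapped Crat, while Crot and Slc22a5 lay above Crat. Slc25a20 went from place 6 in Vehicle to place 5 in CLA and to place 4 in GW6471 and CLA+GW6471. The 8 genes together summed to 56.1 FPKM in Vehicle, 76.2 with CLA, 105.6 with GW6471 and 96.3 with both.

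In CLA against Vehicle, 2 of the 8 genes, Crot and Slc25a20, were at least 1.5-fold higher and 0 were lower by that amount. Of all 10355 genes with a mean of at least 1 FPKM, 7.33% were higher and 4.95% lower. The median log2 ratio of the 8 genes was 0.45, against -0.01 over all of these genes. Slc25a20, at 1.59-fold, fell under the limit with a pseudocount of 1, and neither gene reached 2-fold. Beyond their counting intervals, 5 of the 8 were higher and 0 lower, beside 32.2% and 33.6% of the 9678 genes of known length.

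In GW6471 against Vehicle, Cpt1a and Slc25a20 were at least 1.5-fold higher, and both also exceeded 2-fold. Over all genes, 3.29% were higher by at least 1.5-fold and 2.10% lower. The median of the 8 genes was 0.34, and that of all genes was 0.00 when rounded. All 8 ratios were above 0, of which those of Slc22a5, Cpt1b and Crat, between 0.06 and 0.12, lay within the counting interval. Of all genes, 49.2% had a ratio above 0 in this comparison. The other 5 were higher beyond the counting interval, as were 27.5% of the 9678 genes of known length, with 27.5% lower.

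**Figure D3:**
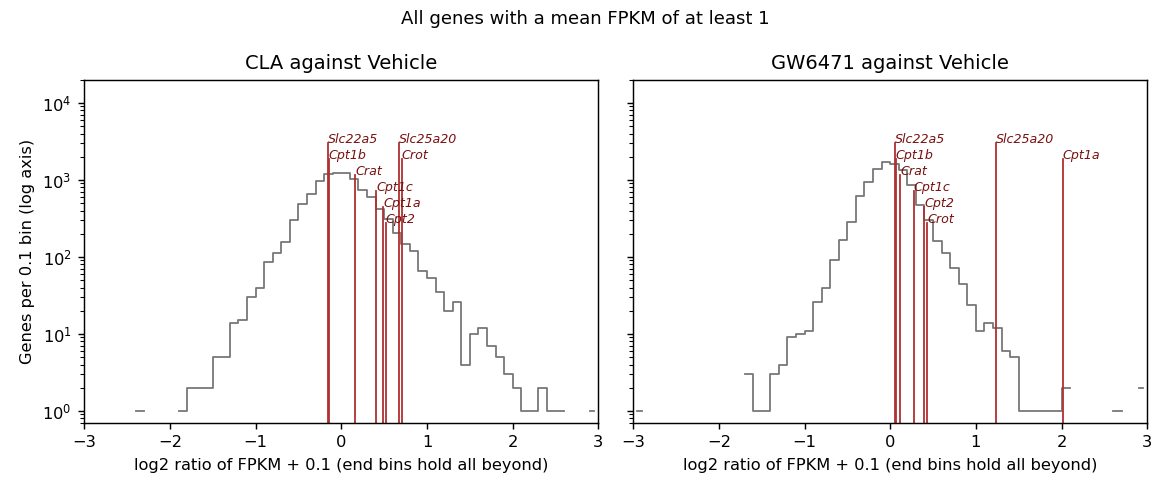
Number of genes per 0.1 bin of the log2 ratio (log axis) for CLA against Vehicle and GW6471 against Vehicle, over 10355 genes, with the 8 carnitine shuttle genes marked by red lines whose heights carry no value. Cpt1a at 2.01 and Slc25a20 at 1.23 lie in the sparse upper part for GW6471, and the other 6 genes lie between 0.06 and 0.43.

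In CLA+GW6471 against CLA the 8 genes went in different directions. Cpt1a was at least 1.5-fold higher and Crot at least 1.5-fold lower, against 6.84% of all genes higher and 9.16% lower. Beyond the counting interval, Cpt1a and Slc25a20 were higher and Cpt1c, Cpt2 and Crot were lower. Of the 9678 genes of known length, 34.9% were higher and 33.8% lower. The median of the 8 was 0.11 and that of all genes 0.01. With the 5 genes of a mean of at least 5 FPKM alone, the median was -0.23.

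In CLA+GW6471 against GW6471, 0 of the 8 genes were higher or lower by at least 1.5-fold, against 2.81% and 3.88% of all genes. The nearest was Crot, whose log2 ratio of -0.57 passed the limit when the libraries were scaled to a common FPKM sum. The median of the 8 was -0.10, against 0.00 over all genes when rounded. Of the 8 ratios, 2 were above 0 and 6 below, while 50.4% of all genes were above 0. Of the 6, Cpt1a, Cpt1c, Slc25a20 and Crot lay below 0 beyond their counting intervals, as did 30.3% of the 9678 genes of known length. None of the 8 lay above 0 by that measure, against 29.0% of those 9678 genes.

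**Figure D4:**
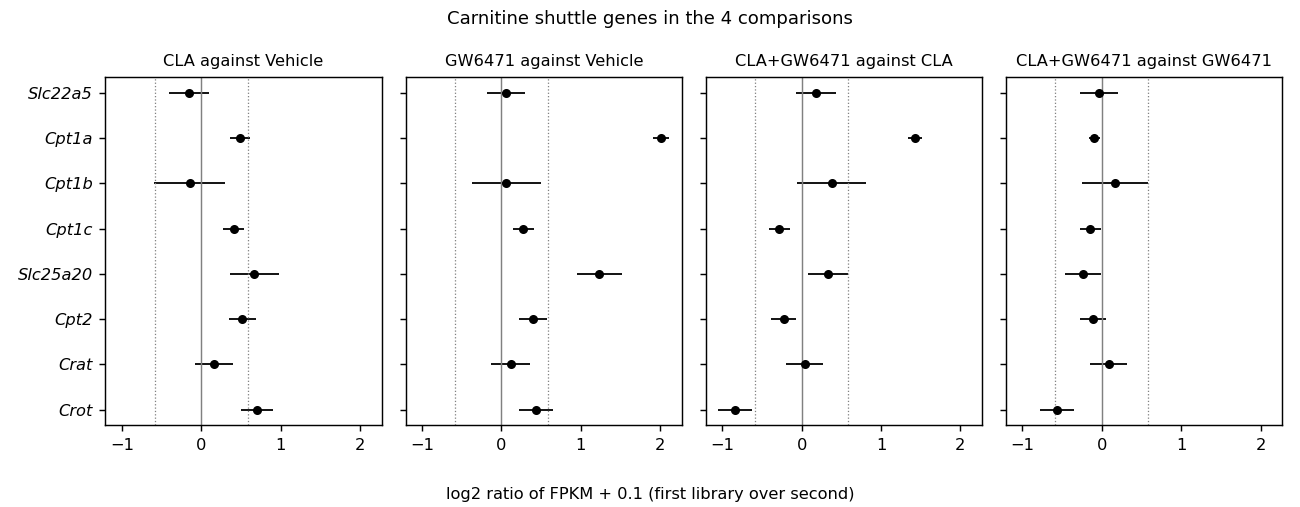
Log2 ratio of FPKM + 0.1 of the 8 genes in the 4 comparisons, ordered by their place in the pathway. Bars are 95% counting intervals, and dotted lines mark 1.5-fold in either direction. Cpt1a lies beyond the upper line in both comparisons of a GW6471 library with its diet control, and Crot lies beyond the lower line in CLA+GW6471 against CLA.

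The effect of the CLA diet can be read in pairs of libraries that share none, without GW6471 and with it. Crot had the widest gap, a log2 ratio of 0.70 without GW6471 and -0.57 with it, and the second minus the first was -1.27 (counting interval -1.57 to -0.97). For Slc25a20 the gap was -0.90 (-1.29 to -0.52), for Cpt2 -0.62 (-0.86 to -0.39), for Cpt1a -0.59 (-0.72 to -0.45) and for Cpt1c -0.56 (-0.74 to -0.37). For Cpt1b, Crat and Slc22a5 the interval of the gap held 0. The gap lay below 0 beyond its interval for 5 of the 8 genes and above 0 for none, beside 34.2% and 35.3% of the 9678 genes with a transcript length. The same 5 had a ratio above 0 in the first pair and below 0 in the second, as did 35.7% of all 10355 genes, and nothing particular to the shuttle is read from these counts.

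**Figure D5:**
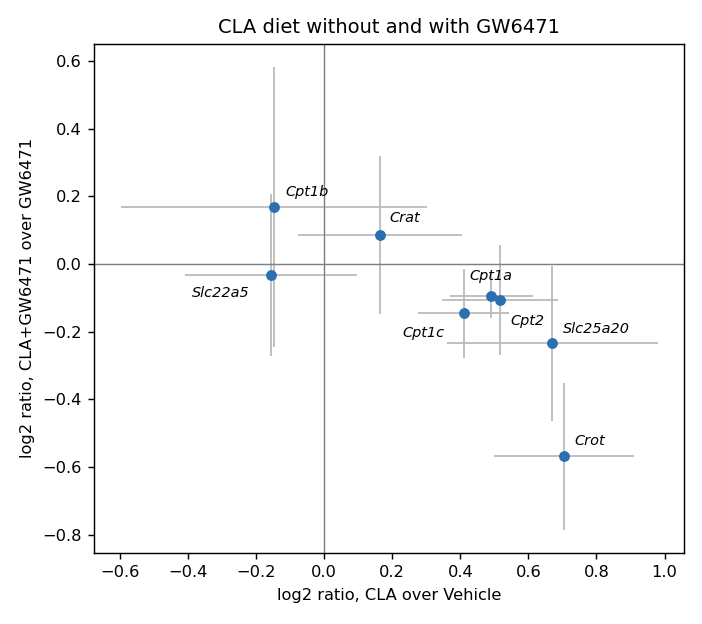
Log2 ratio of CLA to Vehicle (horizontal) against that of CLA+GW6471 to GW6471 (vertical) for the 8 genes, with 95% counting intervals. Crot, Slc25a20, Cpt2, Cpt1a and Cpt1c lie right of 0 and below 0, with Crot farthest down at -0.57.

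Genes with the most similar profile were looked for among 8195 others with a mean of at least 5 FPKM, by the root mean square difference of the log2 ratios to Vehicle over the 3 treated libraries. Nearest to Cpt1a was Fam71f2, at 0.35, with 9.70 FPKM in Vehicle, 12.71 with CLA, 27.60 with GW6471 and 30.15 with both. Acot1, a cytosolic acyl-CoA thioesterase with a close paralog in Acot2, followed at 0.41, and Angptl4, a secreted inhibitor of lipoprotein lipase, at 0.65. None of the 8195 genes came within 0.3 of Cpt1a. For Slc25a20 the nearest were Acadl at 0.25, Acaa2 at 0.35 and Aldh9a1 at 0.37. Acadl and Acaa2 encode a long-chain acyl-CoA dehydrogenase and a thiolase of mitochondrial beta-oxidation, and Aldh9a1 an enzyme of carnitine synthesis. Crot, in contrast, had 1229 genes within 0.3, the nearest of them Rnf128 at 0.02, Cpm at 0.03 and Epb4.1l4b at 0.03.

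Genes around the shuttle were described by function. Of 5 long-chain acyl-CoA synthetases (Acsl), which make the substrate of Cpt1, 4 had a mean of at least 1 FPKM. Acsl1 had 34.92 FPKM in Vehicle, 74.10 with CLA, 59.83 with GW6471 and 34.00 with both, and was the 1 synthetase at least 1.5-fold higher in CLA against Vehicle, beside 7.33% of all genes. In GW6471 against Vehicle, Acsl1 and Acsl4 were higher by that limit, with log2 ratios of 0.78 and 0.77, beside 3.29% of all genes. The same 2 genes were at least 1.5-fold lower in CLA+GW6471 against GW6471, at -0.81 and -0.72, beside 3.88% of all genes. In CLA+GW6471 against CLA, Acsl1 was the 1 synthetase lower by that limit, at -1.12, beside 9.16% of all genes, and 0 were higher. In the CLA+GW6471 library Acsl1 was thus close to its Vehicle level, where Cpt1a was not.

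Malonyl-CoA, the inhibitor of Cpt1, was not itself measured, and only transcripts of the enzymes that control it are given. Acaca, which makes malonyl-CoA, had 8.39 FPKM in Vehicle, 10.17 with CLA, 9.46 with GW6471 and 7.66 with both, and Mlycd, which degrades it, had 2.66 to 2.93 FPKM. Of the 8 genes of malonyl-CoA control that passed the filter, including subunits of the AMP-activated kinase, 0 passed 1.5-fold in CLA or in GW6471 against Vehicle, which is close to the 7.33% of all genes higher and 4.95% lower in the former and the 3.29% and 2.10% in the latter. Prkaa2, with 1.87 FPKM in Vehicle and 1.28 in CLA, was the 1 gene higher in CLA+GW6471 against CLA, by 0.62, beside 6.84% of all genes. Acacb, the form tied to the mitochondrial membrane, was at 0.20 to 0.58 FPKM and below the filter.

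Among 10 genes of carnitine synthesis and transport, 5 of the 8 listed passed the filter. Aldh9a1 had 23.74 FPKM in Vehicle, 36.96 with CLA, 43.43 with GW6471 and 33.01 with both, and was the 1 gene past 1.5-fold, higher in CLA by 0.64 and in GW6471 by 0.87 against Vehicle, where 7.33% and 3.29% of all genes were higher. Tmlhe, the first enzyme of carnitine synthesis, stayed between 6.79 and 7.77 FPKM. Slc22a4 and Slc22a16, other carnitine transporters, were at most 0.50 FPKM.

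In the matrix, all 11 listed genes of beta-oxidation and electron transfer passed the filter. In CLA against Vehicle, 3 were at least 1.5-fold higher (Acads, Hadh and Acaa2) and 0 lower, with a median log2 ratio of 0.37, beside 7.33% and 4.95% of all genes and a median of -0.01. In GW6471 against Vehicle, 4 were higher (Acadl, Acaa2, Hadh and Etfdh) and 0 lower, with a median of 0.45, beside 3.29% and 2.10% of all genes. Acadl had 63.29 FPKM in Vehicle, 81.75 with CLA, 130.16 with GW6471 and 106.79 with both, the order seen in Cpt1a and Slc25a20. Hadh had 30.14, 61.47, 54.71 and 32.33 FPKM in the same libraries, with both single treatments above the other two. Of the same 11, 2 (Acads and Hadh) were lower and 0 higher in CLA+GW6471 against CLA, with a median of -0.26, beside 9.16% and 6.84% of all genes. In CLA+GW6471 against GW6471, 2 of the 11, Acaa2 and Hadh, were lower and 0 higher, with a median of -0.23, beside 3.88% and 2.81% of all genes.

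At the peroxisome, which delivers the substrates of Crot, 8 of 11 genes passed the filter. In CLA against Vehicle, 3 were at least 1.5-fold higher, among them Abcd2 and Scp2, beside 7.33% of all genes, and the median log2 ratio was 0.52. The importer Abcd2 had 1.53 FPKM in Vehicle, 8.61 with CLA, 4.81 with GW6471 and 1.44 with both. In CLA+GW6471 against CLA, 4 of the 8 were at least 1.5-fold lower and 0 higher, with a median of -0.63, beside 9.16% and 6.84% of all genes. Only Abcd2 passed the limit in the other comparisons, higher in GW6471 than in Vehicle (median of the 8 0.29, beside 3.29% of all genes) and lower in CLA+GW6471 than in GW6471 (median -0.33, beside 3.88%). The order of the libraries in Abcd2 was that of Crot.

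Of 9 genes of channels, carriers and enzymes related to the shuttle, 6 passed the filter. Vdac1, the outer membrane channel, had 107.78 FPKM in Vehicle, 154.82 with CLA, 133.99 with GW6471 and 93.49 with both, lower in CLA+GW6471 than in CLA by a log2 ratio of -0.73. Slc25a45, a mitochondrial carrier of the family of Slc25a20, was low and went the other way, at 1.27, 0.57, 0.86 and 1.43 FPKM in the same order. In CLA+GW6471 against CLA, 1 of the 6 was at least 1.5-fold higher (Slc25a45) and 1 lower (Vdac1), beside 6.84% and 9.16% of all genes. Against GW6471, Slc25a29 and Slc25a45 were higher, at 0.68 and 0.67, and 0 lower, beside 2.81% and 3.88%. Only Slc25a45 passed the limit in CLA against Vehicle, lower, beside 4.95%. In GW6471 against Vehicle 0 passed, beside 3.29% higher and 2.10% lower.

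The receptors and cofactors that act on these genes did not differ by 1.5-fold in any of the 4 comparisons, over the 10 of 11 that passed the filter. Over all genes the shares per direction were 2.10% to 9.16%, to which 0 of 10 is close. Ppara itself was at 0.15 FPKM in Vehicle, 0.11 with CLA, 0.06 with GW6471 and 0.07 with both, below the filter in all libraries. Ppard had 19.8 to 27.3 FPKM and Pparg 8.06 to 10.74 FPKM, so that both other PPAR transcripts were listed well above Ppara. Rxra, the partner of the PPARs, had 9.70 to 10.72 FPKM.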

How the data were processed

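RNA-seq libraries of mouse liver were analysed, with 1 library for each of the 4 conditions, assigned from the sample titles. Per the labels and the study's methods, reads were mapped to mm9 with BWA and Bowtie and quantified with Cufflinks, whose versions are not given in the sources used here, and the authors deposited FPKM with 2 decimals. The filter behind the 15500 listed genes is not given there either. FPKM were used as deposited, and the log2 of FPKM + 0.1 was taken, which makes differences of weakly expressed genes look smaller. Genes with a mean of at least 1 FPKM (10355) formed the background, and 1.5-fold was the limit for counting a gene as higher or lower. No test was made, since each condition has 1 library.

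The depth was estimated from 453 genes with a single transcript under 1000 nt, as the number of reads that brought FPKM times length nearest to whole numbers. Reads per gene used the longest coding transcript of GENCODE vM1, so the counting intervals (exact Clopper-Pearson for ratios, exact Poisson for levels, and a normal approximation for the gap between ratios) are approximate. The steps were tested on simulated libraries. The genes of the shuttle and all lists were chosen with earlier results of these data known. All 8 shuttle genes are named, listed genes from a mean of 1 FPKM may be named, and the profile search gives the 3 nearest genes for each shuttle gene that spans 1.5-fold. The motif search within 5000 bp was added after the promoter windows were examined. Other pseudocounts, scalings, filters and a 2-fold limit were tried. Calculations used scipy 1.17.1 and pandas 2.3.3 under Python 3.11.15. The values of a few listed genes are not reported here.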

Additional observations from a re-analysis of the deposited data

Results flagged for a closer look

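For 4 genes the CLA diet went with a higher level without GW6471 and a lower level with it, both beyond the counting interval. With GW6471 the log2 ratio was -0.57 for Crot, but -0.23 for Slc25a20, -0.15 for Cpt1c and -0.09 for Cpt1a. The intervals of these last 3 ended near 0, at -0.01, -0.01 and -0.03. The difference between the log2 ratios with and without GW6471 was -1.27 for Crot, -0.90 for Slc25a20, -0.59 for Cpt1a and -0.56 for Cpt1c. With 1 library per condition this difference was not tested. By the same limits, 20.0% of the 9678 genes with a mean of at least 1 FPKM and a transcript length were higher and then lower.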

How the results depend on the processing

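Of 80 counts and medians of the 8 genes under an alternative, 75 stayed close to the reported value (within 1.5 times for a count, within the counting intervals of the middle genes for a median) and 5 moved. In CLA against Vehicle, the number of genes higher by the limit was 2 as reported, 1 with a pseudocount of 1 and 0 at a limit of 2-fold. In CLA+GW6471 against CLA, the number lower was 1 as reported and 0 at 2-fold, and the median was -0.23 when a mean of at least 5 FPKM was required. In CLA+GW6471 against GW6471, 1 gene, Crot, was lower by the limit with the libraries scaled to a common FPKM sum. All 160 ratios and differences of single genes under another pseudocount or scaling stayed within their counting intervals, and 0 changed sign. No paired analysis was possible because each condition has 1 library. The depth limits Cpt1b most, at 70 to 96 estimated reads per library, and the absence of replicates limits every comparison.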
